A study of Homo sapiens with 3 samples.

Results

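The genes of the ATP-driven ion pumps, the vacuolar proton pump and the phospholipid flippases were examined for binding sites of estrogen-related receptor gamma (ERRγ, gene ESRRG) in BT-474 cells, an established luminal breast cancer line with amplified ERBB2. Member peaks were chosen by the gene name that the authors' annotation had given them, beginning with ATP1A, ATP1B, ATP2A, ATP2B, ATP2C, ATP4, ATP6 to ATP13 and leaving out the ATP5 genes of ATP synthase. This took 77 of 15223 peaks, of which 75 were named for protein-coding genes and 2 for non-coding ones. The family held 65 protein-coding genes on the nuclear chromosomes, 27 of P-type pumps, 24 of the V-type ATPase and 14 of flippases. The presence of a peak is thus part of the choice for the 30 genes that were named, and the other 35 genes of the family, without any peak, were counted as unbound. Chromatin immunoprecipitation with sequencing (ChIP-seq) had been run on vehicle-treated cells, harvested 90 min after fresh medium was given, with 2 ERRγ libraries from a custom antibody and 1 input library as the control. The table was 1 merged list of peaks on the hg19 build, with no value per library. There is therefore no replicate spread, and intervals on shares of genes cover counting error only. No measure of expression was part of the table, so the line was not checked against its markers.

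P-type pumps form a phosphorylated intermediate while they move ions: the Na,K-ATPase keeps the sodium and potassium gradients of every animal cell, SERCA, PMCA and SPCA pumps remove calcium from the cytosol, and copper pumps load and export copper. The V-type ATPase is a rotary proton pump that acidifies lysosomes and other compartments, with a cytosolic V1 sector that hydrolyses ATP and a membrane V0 sector that carries protons. Flippases of the P4 group, which are P-type ATPases too but were counted here as a class apart, move phospholipids to the cytosolic leaflet of membranes. ERRγ is an orphan nuclear receptor that binds an extended form of the AGGTCA site, written here as TNAAGGTCA (N is any base). In mice, loss of Esrrg is known to disturb potassium handling in heart, stomach and kidney.

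Sequences at start sites are given for ATP6V0A4, ATP1B1 and ATP6V0B, which had 3 of the 5 annotated promoter peaks. Of these 3 genes, 1 carried the extended site. RefSeq promoter windows of the GRCh38.p14 assembly, from 250 bases before to 50 bases after a transcription start site (TSS), were given for 50 of the 65 family genes, 70 windows in all, and for 9 of the 13 genes with a peak within 10 kb. On either strand, TNAAGGTCA was found in 1 of these 70 windows (1.43%), against 149 of 22199 windows of protein-coding genes (0.671%). For family genes with a peak within 1 kb it was in 1 of 12 windows, beside 19 of 1048 over all such genes. The window was 1 of 2 of ATP6V0A4, the gene of the kidney-type a4 subunit of the V0 sector. Both are printed here, with those of ATP1B1 and ATP6V0B, in which neither the extended nor the core site was found. Capitals mark TNAAGGTCA, and all are written on the strand of the gene.
ATP6V0A4, downstream start, chr7:138773886-138774185, minus strand: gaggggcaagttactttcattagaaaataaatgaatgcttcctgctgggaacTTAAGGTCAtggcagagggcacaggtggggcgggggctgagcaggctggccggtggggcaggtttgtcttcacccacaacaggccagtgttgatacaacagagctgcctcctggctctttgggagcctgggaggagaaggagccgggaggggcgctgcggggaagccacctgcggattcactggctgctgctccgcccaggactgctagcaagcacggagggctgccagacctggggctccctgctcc
ATP6V0A4, upstream start, chr7:138798147-138798446, minus strand: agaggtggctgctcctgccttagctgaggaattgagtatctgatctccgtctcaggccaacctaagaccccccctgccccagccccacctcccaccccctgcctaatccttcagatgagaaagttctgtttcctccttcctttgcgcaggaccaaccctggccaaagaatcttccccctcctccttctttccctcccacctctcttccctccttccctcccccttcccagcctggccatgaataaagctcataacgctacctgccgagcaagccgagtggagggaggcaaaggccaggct
ATP1B1, chr1:169106440-169106739, plus strand: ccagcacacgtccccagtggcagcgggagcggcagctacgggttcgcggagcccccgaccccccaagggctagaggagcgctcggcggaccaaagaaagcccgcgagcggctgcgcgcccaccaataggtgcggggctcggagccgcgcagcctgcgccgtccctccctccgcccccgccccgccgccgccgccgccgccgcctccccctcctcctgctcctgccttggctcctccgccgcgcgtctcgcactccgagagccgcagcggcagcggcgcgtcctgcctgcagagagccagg
ATP6V0B, chr1:43974710-43975009, plus strand: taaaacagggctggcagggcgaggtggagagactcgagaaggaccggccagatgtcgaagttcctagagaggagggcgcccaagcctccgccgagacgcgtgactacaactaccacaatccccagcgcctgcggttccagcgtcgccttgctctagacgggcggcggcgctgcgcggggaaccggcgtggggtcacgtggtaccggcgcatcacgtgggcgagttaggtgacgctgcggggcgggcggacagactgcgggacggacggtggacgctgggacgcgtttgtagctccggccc

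In the downstream ATP6V0A4 window the match read TTAAGGTCA, on the strand of the gene, with its first base at position -198 from the start (the base before the start being -1). The ATP6V0A4 windows had 8 CpG dinucleotides (downstream) and 5 (upstream), whereas that of ATP1B1 had 41 and that of ATP6V0B had 37. The windows carry no transcript names and another build than the peaks, so none was placed inside a peak by coordinate. The deposited table does place a peak at an internal start of ATP6V0A4, since the sequence upstream of that start was annotated as intron 1 of another transcript. The core AGGTCA, which is also the end of the extended site, was found in 11 of 70 family windows (15.7%) and 2637 of 22199 windows (11.9%). It was in 1 of the 14 windows of family genes with a peak within 10 kb, the ATP6V0A4 one, and in 10 of the 56 windows of the others. Those 10 came from ATP11A, ATP2B2, ATP4A, ATP4B, ATP6V0A1, ATP6V0C, ATP6V0D1, ATP6V1E1 and ATP7B. Over all protein-coding genes, the core was in 207 of 1048 windows of genes with a peak within 1 kb (19.8%). For genes with no peak within 10 kb it was in 2198 of 19263 windows (11.4%). The family counts are too small to compare with these shares. The longer TCAAGGTCA was in 0 family windows and in 54 of all windows (0.243%). A match of letters is a description and not a binding site.

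ERRγ peaks lay near 13 of the 65 family genes, with different counts in the 3 classes. A gene was taken as bound when a peak named for it was centred within 10 kb of a TSS. These 13 genes make a share with an exact 95% interval of 11.1 to 31.8%, beside 2301 of 20037 protein-coding genes (11.5%). Of P-type pump genes 8 of 27 were bound (29.6%, 13.8 to 50.2), of V-type ATPase genes 4 of 24 (16.7%, 4.74 to 37.4) and of flippase genes 1 of 14 (7.14%, 0.181 to 33.9). The intervals of the 3 classes overlapped, and differences between classes were not tested, since genes are not replicates. Within 1 kb there were peaks for 7 family genes (10.8%, 4.44 to 20.9), beside 4.16% of all protein-coding genes: ATP1B1, ATP2C1, ATP13A4, ATP13A5, ATP6V0A4, ATP6V0B and ATP6V0E2. Within 50 kb there were 27 (41.5%) beside 22.6%, and at any distance 30 (46.2%) beside 29.6%. The order of the classes depended on the limit: at any distance the share was 50.0% of flippase genes, 48.1% of P-type pump genes and 41.7% of V-type ATPase genes. The peak presence in the counts is what the naming used, so these shares describe the family and are not support for it. For scale, 9 of 19 genes of the F-type ATP synthase, which the naming rule left out, were bound, all within 1 kb (47.4%, 24.4 to 71.1).

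**Figure D1:**
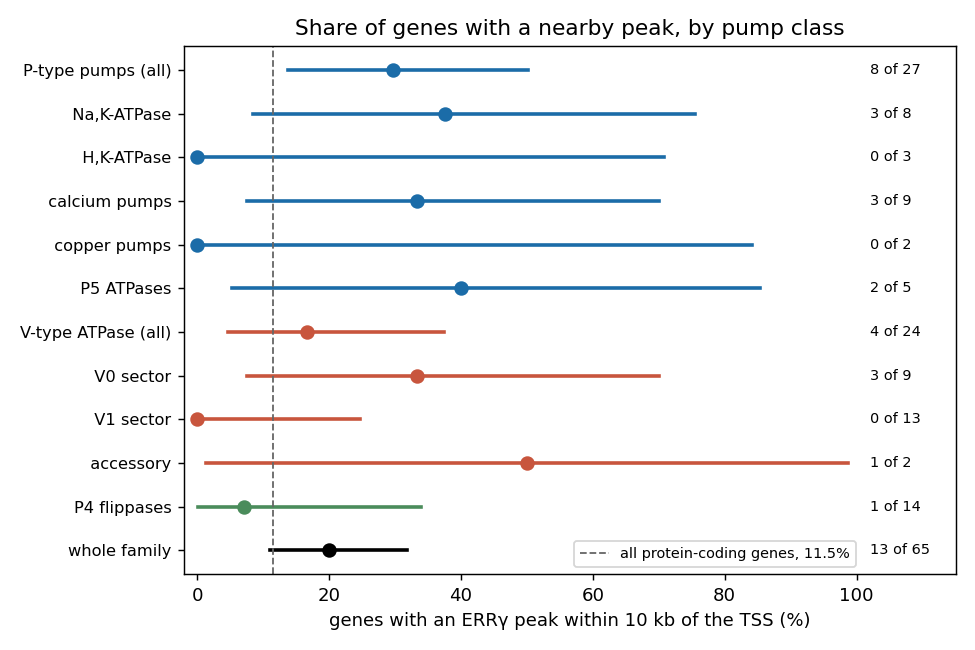
Share of genes with an ERRγ peak within 10 kb of the TSS (x axis, %) for each class and group of ATPase genes; points are shares, lines exact 95% intervals, numbers at the right the counts, and the dashed line the 11.5% of all protein-coding genes. The V1 sector sits at 0 of 13 and the V0 sector at 3 of 9, and the lines of small groups are wide.

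The distance limit fell between genes with similar positions. Just inside it lay peaks of ATP1A4 at 8284 bp and ATP8B1 at 9045 bp, and just outside it those of ATP6V1C1 at -10346 bp, ATP2B1 at 10435 bp, ATP4B at 10633 bp and ATP2B2 at 10740 bp (negative distances lie upstream of the TSS).

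Among the Na,K-ATPase genes, ATP1A4 and ATP1B1 had peaks, and ATP1B2, ATP1B3 and ATP1B4, which encode other beta subunits, had none. ATP1B1, the gene of the beta subunit that brings the pump to the plasma membrane of most cells, had the widest and one of the highest-scoring peaks of the family. It ran from 169071396 to 169080424 on chromosome 1, 9028 bp, against a median width of 1309 bp over family peaks and 1219 bp over all peaks, was centred at -37 bp and scored 3100. The score is the authors' own value per peak, has no stated unit, and ran from 50 to 3227 with a median of 106 over the list. A further 7 peaks, between 158 kb upstream and 89.3 kb downstream, scored only 55.2 to 154. The 2 farthest downstream lay in intron 10 of 11 of the neighbouring gene NME7.

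ATP1A4, the alpha subunit of sperm, had 1 peak, in its intron 6 of 21 at 8284 bp, with a score of 1312, above 96.1% of all peaks (chromosome 1, 160128715 to 160130558). Of the H,K-ATPase genes, which serve acid secretion in the stomach and potassium uptake elsewhere, ATP4B had 1 peak of 242 at 10.6 kb, and ATP4A and ATP12A had none named for them.

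Calcium pump genes had peaks in each of their 3 branches. Within 10 kb there were peaks for 1 of 3 SERCA, 2 of 2 SPCA and 0 of 4 PMCA genes, beside 11.5% of all protein-coding genes. The branches are small, and differences between them were not tested. SERCA pumps fill the endoplasmic reticulum. ATP2A3, the gene of SERCA3, which is known from epithelial and blood cells, carried 2 of the strongest family peaks: 3100 at -13.1 kb (chromosome 17, 3879152 to 3882530) and 2033 in intron 1 of 22 at 3912 bp (3862177 to 3865471). Another scored 314 at -24.4 kb. ATP2A2, the SERCA2 gene of most tissues, had a single peak of 163 in an exon at 58.5 kb, and ATP2A1, of fast muscle, had none.

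The SPCA pumps supply calcium and manganese to the Golgi, and both of their genes were bound. ATP2C1 had a promoter peak of 286 at -588 bp (chromosome 3, 130567715 to 130569847), and ATP2C2, expressed in secretory epithelia such as the mammary gland, had 147 at -1353 bp and 100.8 at -11.9 kb. PMCA pumps export calcium across the plasma membrane, and 0 of their 4 genes had a peak within 10 kb. ATP2B2, whose PMCA2 pump is known to move calcium into milk, had 448 at 10.7 kb in intron 1 of 19, 116 at -47.5 kb and 60.5 at -17.2 kb, all annotated in MIR elements, a family of short interspersed repeats. ATP2B1 had 1 peak of 72.2 in its intron 1 of 19 at 10.4 kb, and ATP2B3 and ATP2B4 had none.

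The copper and P5 pump genes had peaks of low score. ATP7B, mutated in Wilson disease, had 2 intronic peaks of 66.0 and 81.8 at 13.3 and 53.5 kb, and ATP7A had none. Of the P5 ATPases, some of which carry polyamines, ATP13A4 had 118 in intron 1 of 29 at 314 bp and 99.7 at -4315 bp, and ATP13A5 had 54.4 in intron 1 of 29 at 919 bp, which exceeded only 7.23% of all peaks. ATP13A1, ATP13A2 and ATP13A3 had none. Of the 5 peaks of these groups, only the ATP13A4 one at 314 bp scored above the median of the list.

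**Figure D2:**
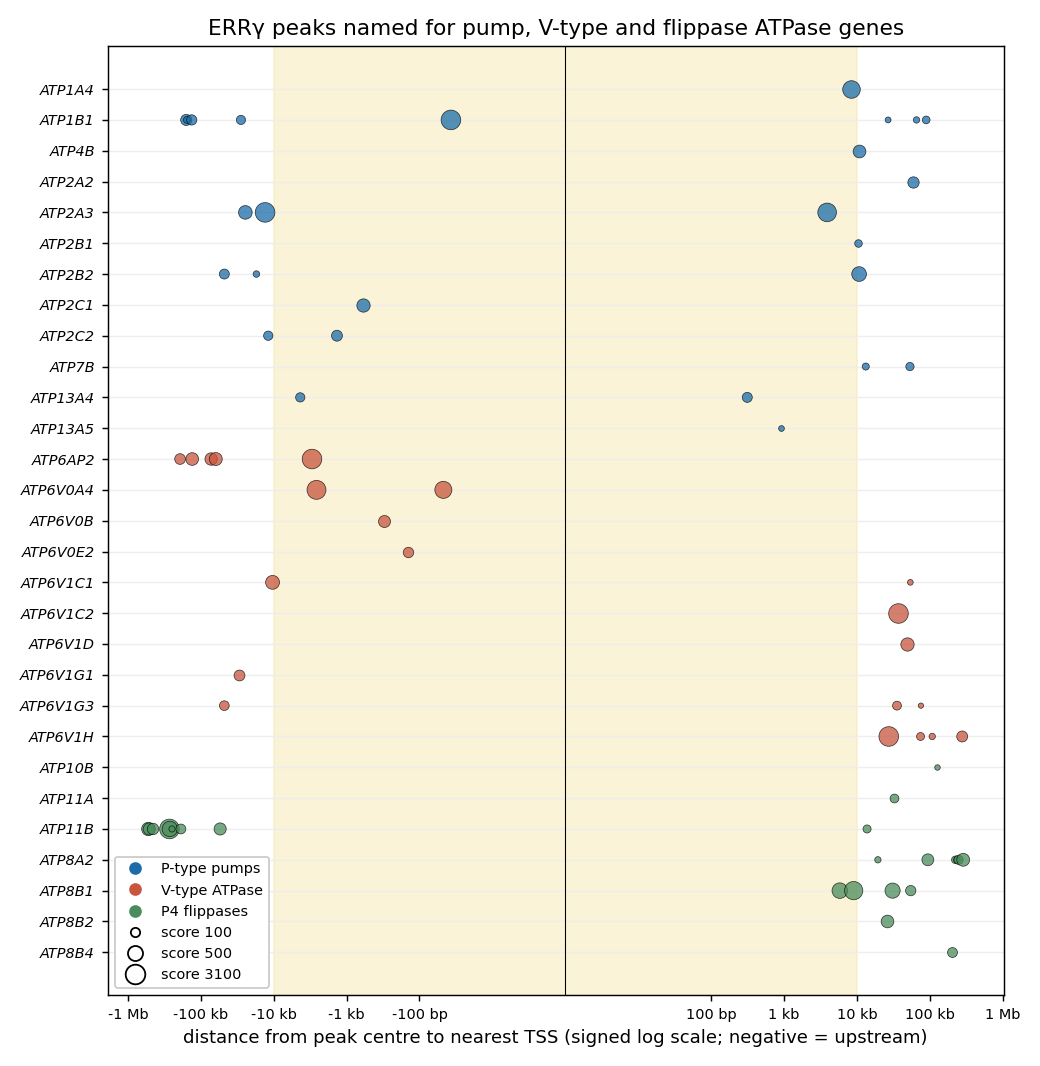
The 70 peaks of 29 named protein-coding genes, by signed distance from the peak centre to the nearest TSS (x axis, log scale on each side, negative upstream); the circle area rises with the log of the score, colours give the class, and the shaded band is the 10 kb limit. ATP1B1, ATP6V0A4, ATP6AP2, ATP2A3, ATP8B1 and ATP1A4 have large circles inside the band, while ATP6V1C2, ATP6V1H and ATP11B have theirs outside.

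In the V-type ATPase, all 3 subunit genes with nearby peaks encode the membrane sector. Of the 9 V0 genes 3 were bound (33.3%, exact 95% interval 7.49 to 70.1), all within 1 kb, and of the 13 V1 genes 0 (a count of 0 allows a share of up to 23.1%). The share over all protein-coding genes, 11.5%, lies inside the V0 interval and below the V1 limit, and the sectors were not tested against each other. With peaks at any distance counted, there were 3 of 9 V0 genes and 6 of 13 V1 genes, beside 29.6% of all protein-coding genes. ATP6V0A4 had both of its peaks centred upstream of the internal start named in the table: 1049.95 at -47 bp (chromosome 7, 138458170 to 138459489) and 2293 at -2583 bp (138460497 to 138462233), separated by 1007 bp. The first of them spans that start. ATP6V0B, the c'' proteolipid of the proton-carrying ring, scored 194 at -302 bp (chromosome 1, 44439750 to 44440851), and ATP6V0E2, an e subunit, 129.9 at -142 bp (chromosome 7, 149569252 to 149570578). No peak was named for ATP6V0C, ATP6V0D1, ATP6V0D2 or ATP6V0E1. The ATP6V0A4 peaks scored above 94.8% and 98.1% of all peaks, whereas ATP6V0A1 and ATP6V0A2, which encode other forms of the same subunit, had none. TCIRG1, the gene of the a3 form, is outside the naming rule and the 9 V0 genes, and had no peak either.

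The V1 genes had only distal peaks, of very unequal score. ATP6V1C2, whose C2 subunit is known from kidney and lung, scored 3100 in intron 4 of 12 at 36.1 kb (chromosome 2, 10897067 to 10898771), and ATP6V1H, the regulatory H subunit, 3100 in intron 5 of 12 at 27.4 kb. The other 3 ATP6V1H peaks scored 59.2 to 147. ATP6V1C1 had 341 at -10.3 kb and 54.1 at 54.1 kb, ATP6V1D 284 at 48.0 kb in an intron of PALS1, ATP6V1G1 144 at -29.5 kb, and ATP6V1G3 3 peaks of 51.1 to 109. ATP6V1A, ATP6V1B1, ATP6V1B2, ATP6V1E1, ATP6V1E2, ATP6V1F and ATP6V1G2 had none. ATP6V1A encodes the catalytic A subunit, and its RefSeq neighbours NAA50 and GRAMD1C had peaks of 114.95 at -230 bp and 64.6 at 82 bp. Beside ATP6V1G2, the neighbour DDX39B had a peak of 2560 at 368 bp, and beside ATP6V1E1, BCL2L13 had one of 93.8 at -169 bp. The neighbours of ATP6V1B1, ATP6V1B2, ATP6V1E2 and ATP6V1F had no peak within 1 kb. As the table names 1 gene a peak, such a peak does not count for the next gene.

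Of the accessory genes, ATP6AP2, the (pro)renin receptor, had a peak of 3038 at -2978 bp (chromosome X, 40436321 to 40438155), above 98.8% of all peaks. Its other 4 peaks, at -62.2 to -192.2 kb, scored 138 to 259. ATP6AP1 had none.

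The flippase genes had 23 peaks but 1 bound gene of 14, beside 11.5% of all protein-coding genes. ATP8B1, the flippase of the bile canaliculus mutated in familial cholestasis, had 4 peaks in its intron 1 of 27: 592 at 5833 bp, 1745 at 9045 bp, 524 at 30.9 kb and 126 at 54.9 kb (the strongest on chromosome 18, 55460305 to 55462259). ATP11B had the most peaks of the family, 9, of which 8 were intergenic, at -54.2 to -524.3 kb from its TSS. The strongest scored 3100 at -268.5 kb (chromosome 3, 182241895 to 182243723), the next 578 at 1239 bp from it, and the peak in its own intron 1 of 29 only 78.5. SOX2, with 13 peaks of its own, is the next protein-coding gene on that side in the RefSeq order, and the table names a peak for the nearest TSS. ATP8A2, a phosphatidylserine flippase of neurons, had 6 intronic peaks of 58.9 to 249, from 19.4 to 288 kb. ATP8B2 had 235 at 25.5 kb, ATP8B4 115.1 at 201 kb, ATP11A 90.2 at 32.5 kb and ATP10B 52.7 at 125 kb. ATP8A1, ATP8B3, ATP9A, ATP9B, ATP10A and ATP10D had none. No flippase gene had a peak within 1 kb (0 of 14, which allows a share of up to 21.4%), beside 4.16% of all protein-coding genes. The median distance of flippase peaks was 187 kb, beside 17.2 kb for P-type pump peaks and 47.5 kb for V-type ATPase peaks. ATP11B and ATP8A2 gave most of the flippase peaks: the median was 74.5 kb over the 14 peaks left without ATP11B and 125 kb over the 17 left without ATP8A2.

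The scores of family peaks had a median of 147, beside 106 over all peaks. Of the 77, 6 scored 3100 (7.79%), beside 175 of 15223 peaks with at least that score (1.15%): those of ATP1B1, ATP2A3, ATP6V1C2, ATP6V1H, ATP11B and the pseudogene ATP6V0CP3. Over the list 158 peaks tied at 3100, so these 6 have no order among themselves. Over the 13 bound genes the strongest peak within 10 kb had a median of 286, from 54.4 for ATP13A5 to 3100 for ATP1B1, beside 151 over all 2301 bound genes. By class the median over all peaks was 118 for P-type pumps, 194 for the V-type ATPase and 167 for flippases, and these differences were not tested.

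**Figure D3:**
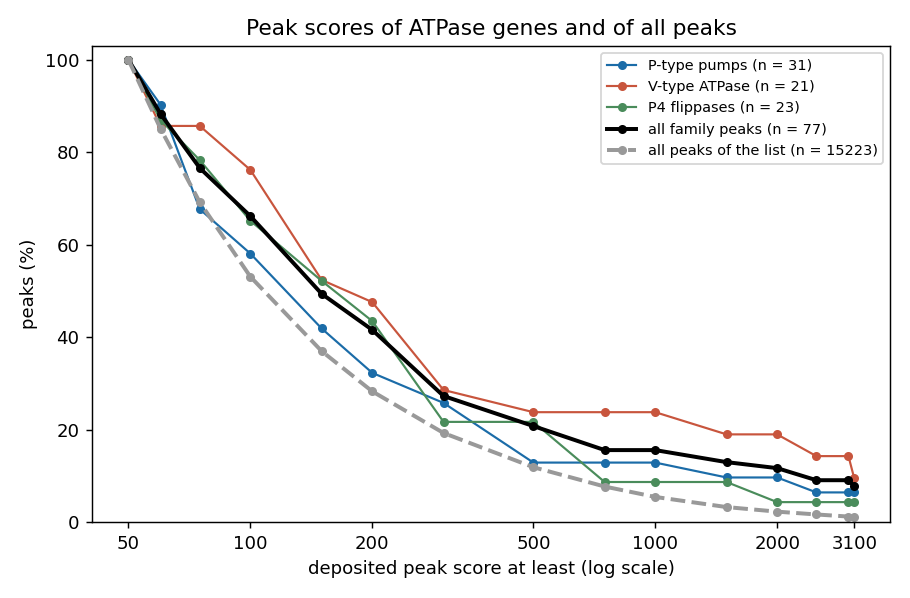
Percentage of peaks (y axis) with at least the score on the x axis (log scale), for each class, for all 77 family peaks and for all 15223 peaks. At a score of 1000 the curves stand at 15.6% of family peaks and 5.47% of all peaks.

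Several features that neither the name nor the score uses were set beside those of the list, without a test. Introns held 31 (40.3%, beside 41.6% of all peaks), intergenic sequence 39 (50.6%, beside 51.9%) and annotated promoters 5 (6.49%, beside 3.74%). Annotated repeats held 28 (36.4%, beside 34.7%). The median GC fraction was 0.432 beside 0.405, and the median conservation score 0.06 beside 0.07. Among the 7 peaks within 1 kb the median CpG fraction was 0.0197, beside 0.0488 over the 917 such peaks of the list. The ATP6V0B peak had 0.0845, and those of ATP13A5, ATP2C1 and ATP13A4 had 0.00628, 0.00891 and 0.0107.

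Partner genes of the pumps were counted on a further list of 44 genes. Of these 4 were bound within 10 kb (9.09%, exact 95% interval 2.53 to 21.7), beside the 11.5% of all genes. Among them, FXYD2, the gamma subunit that modulates the Na,K-ATPase in kidney, scored 346 at -5709 bp, the potassium-chloride cotransporter gene SLC12A4 184 at 2622 bp, and TMEM30B, an accessory subunit of flippases, 127 at -8866 bp. None of the 14 genes of calcium release, entry and exchange was bound within 10 kb (exact 95% interval up to 23.2%). At any distance 7 of the 14 had a peak, beside 29.6% of all protein-coding genes. The strongest were those of the exchanger gene SLC8A1, 3195 at -630155 bp, and of ITPR1, the gene of a calcium release channel, 2869 at 31470 bp. The V-ATPase assembly genes had 0 of 7 bound, the copper handling genes 0 of 4, and the lysosomal regulators TFEB, TFE3 and MITF 0 of 3. These sets are small: their exact 95% intervals reach 41.0%, 60.2% and 70.8%, above the 11.5% of all genes.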

How the data were processed

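ERRγ ChIP-seq of BT-474 cells had 2 ERRγ libraries and 1 input library of single 50 bp reads. Tools named in the submitters' processing notes are HOMER 3.18, MACS 1.4.1 and BWA 0.5.9, with the hg19 build. The notes assign them no roles, and neither a calling threshold nor any pooling of libraries is stated. Per the file headers, the authors deposited for each peak a score, the signed distance to the nearest TSS, an annotation, and GC, CpG and conservation values. The deposited GC and CpG contents are fractions, and conservation is a score from 0 to 1. Read depth is unknown here. Peaks were joined to genes by gene identifier (99.5% matched RefSeq of GRCh38.p14, used for symbols, gene order and promoter sequences). Shares have exact Clopper-Pearson 95% intervals, and a count of 0 among family genes the limit of 3 counts over the number of genes (Python 3.11.15, pandas 2.3.3, scipy 1.17.1). No test was run, since genes of 1 list are not replicates. The counting was tested on simulated data. Members and lists were chosen with earlier results of these data known. Named were every gene with a peak within 10 kb, the strongest peak of each class, the unbound family genes by class and the bound partner genes, apart from a few genes not reported here, which the counts include. On that list, 2 symbols were replaced by current ones, VMA12 and TMEM30CP. Alternatives were 1 kb, 50 kb or any distance, the upper 50% and 10% of peaks by score, merging of peaks within 500 bp, leaving out chromosomes 17 and 20, counting the annotated transcript's gene, only genes named in the table, also counting non-coding names, and other motifs.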

Additional observations from a re-analysis of the deposited data

How the results depend on the processing

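Of 52 values recomputed under an alternative, 31 stayed close to the reported value (within 1.5 times for a count or a median, within its exact 95% interval for a share) and 21 did not. The 31 include values that could not move: those under merging, and the family count among only genes named in the table. By distance, 7, 27 and 30 family genes had a peak within 1 kb, 50 kb and any distance, against 13 at 10 kb. At these distances the flippase share was 0, 35.7% and 50.0%, against 7.14%, and the V-type share 41.7% at both larger distances, against 16.7%. The P-type share was 14.8%, 44.4% and 48.1%, beside 4.16%, 22.6% and 29.6% of all protein-coding genes. All 3 lay inside the wide interval of its 29.6% at 10 kb, which covers counting error and not a change of distance. With the upper 10% of peaks 6 family genes and 11.1% of P-type pump genes were bound, beside 1.83% of all genes. With the annotated transcript's gene counted too, 24 family genes and 42.9% of flippase genes were bound, beside 21.3% of all genes. Among only genes named in the table, the shares were 61.5% of P-type pump and 40.0% of V-type ATPase genes, beside 38.8% of all; fewer genes form the denominator by construction. The motif was found in 0 family windows as TCAAGGTCA and in 11 as AGGTCA. Of the 44 partner genes, 1, 9 and 14 were bound at 1 kb, 50 kb and any distance, an alternative chosen after seeing the data. The shares over all protein-coding genes at these distances were 4.16%, 22.6% and 29.6%. The family count and the 3 class shares stayed close with the upper 50% of peaks and with chromosomes 17 and 20 left out. Merging left the 77 family peaks at 77, so it could not change these values. With non-coding names also counted, 14 of 112 names were bound (12.5%, beside 11.5% of protein-coding genes), and the shares were 20.5% of P-type, 10.2% of V-type and 4.17% of flippase names. No non-coding genes were added to that 11.5%, so these shares have no matched share beside them. The median distance of flippase peaks was 74.5 kb without ATP11B and 125 kb without ATP8A2, against 187 kb, also chosen after seeing the data. Small classes limit these shares: 1 gene is a large part of a group of 14 or fewer. No paired analysis was possible because the table holds 1 merged list with no value per library; for the same reason no library could be left out.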

Other observations

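Some peaks inside family genes were named for another gene. Of 40 peaks annotated within a transcript of the family, this held for 6. ATP8A2 held 5 of them, in introns 25 to 35 of 36 named for SHISA2 and scoring 50.4 to 145. The remaining one, of 99.3, lay in intron 17 of 21 of the gastric proton pump gene ATP4A and was named for TMEM147 at 7681 bp. Beside bound family genes, P2RX1, a neighbour of ATP2A3, had a peak of 263 at -959 bp, and NEDD4L, a neighbour of ATP8B1, one of 269 at 107 bp.

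The pseudogene ATP6V0CP3 scored 3100 at -1073 bp (chromosome 6, 42693357 to 42695126), and its protein-coding neighbours in the RefSeq order, PRPH2 and TBCC, had no peak. Non-coding genes that carry a family symbol in RefSeq but an older name in the table were outside the naming rule. Of these, ATP2B1-AS1 had 5 peaks of 50.8 to 153, ATP6V0E2-AS1 2 of 514 and 504, and ATP13A3-DT 1 of 125, all more than 10 kb from their starts.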
